A study of Saccharomyces cerevisiae with 3 samples.

Results

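Among the yeast genes that the array annotation lists by a systematic name alone, 109 probe sets for 109 genes differed at least 2-fold between the 2 arrays labelled RPA12 deletion (the deletion-labelled arrays) and the array labelled wild type (the wild-type-labelled array). They were chosen from 498 such probe sets (490 genes), which are a small share of the 5498 probe sets of the array that carry a name of a Saccharomyces cerevisiae gene. A gene was taken when each of the deletion-labelled arrays lay at least 1 (log2) above the wild-type-labelled array, or each at least 1 below it, and the brighter group was above log2 5. The rule gave 70 higher and 39 lower genes, where higher and lower always describe the deletion-labelled arrays against the wild-type-labelled one. Since these differences chose the genes, they are given as a description, and no test of them is used as support.

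The RNA is described as coming from stationary-phase cells of the haploid laboratory strain BY4741 (MATa, with deletions his3Δ 1, leu2Δ 0, met15Δ 0 and ura3Δ 0), which both groups are labelled to share. One group is labelled RPA12 delta (2 arrays) and the other wild type (1 array). Cultures grew without treatment in synthetic medium at 30 °C, and total RNA was hybridised as biotinylated cRNA to Affymetrix arrays. The growth protocol of the wild-type-labelled array also names the RPA12 deletion strain, while its genotype and description read wild type, which were followed. Only the titles of the deletion-labelled arrays name synthetic medium and stationary phase. A difference in growth between the groups cannot be told apart from the RPA12 label and was not tested. The RPA12 protein is part of RNA polymerase I, which makes the large ribosomal RNAs. Values are log2 RMA values, in which 1 unit is a doubling of signal. Nothing in the labels says that the pair of deletion-labelled arrays came from separate cultures, and the wild type has no replicate.

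Several genes went against the labels. RPA12 itself read 5.74 and 5.79 on the deletion-labelled arrays and 3.60 on the wild-type-labelled array, so its signal was 4.48-fold higher on the arrays where the label says the gene is deleted. MET17, the gene deleted as met15Δ, read 9.43 and 9.36 against 1.56. The pheromone gene MF(ALPHA)1, which α cells express, read 8.94 and 8.80 against 1.75, and HMRA1, which carries a-cell mating information, read 1.25 and 1.09 against 7.41. Array controls also set the groups apart: the 36 poly-A spike-in probe sets had a median difference of -3.81 and the 27 hybridization controls one of -1.48. Strain background, mating type and array processing therefore cannot be told apart from the RPA12 label in any value below. Whether the labels of the groups were exchanged was not tested. If they were, every higher and lower below would turn round.

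A yeast gene's systematic name gives its chromosome as a letter, its arm, its order from the centromere and its coding strand, with W for the Watson and C for the Crick strand. Genes often keep this name alone when no function has been settled on well enough for a standard name, although some given below are known enzymes. For many of them the protein sequence places them in a family, or their expression has been followed in earlier work. A suffix (-A or -B) marks open reading frames added to the map later, and most of these are short. Some systematic names stand for parts of retrotransposons or of the repeats next to telomeres, which are present in several near-identical copies.

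Past the rule were 14.1% of the systematic-name probe sets as higher and 7.83% as lower. Over all 5498 named probe sets the same rule took 18% as higher and 9.33% as lower, and over the 5000 with a standard name 18.3% and 9.48%. Systematic-name probe sets were dimmer in general: their median was 4.51 and 4.55 on the deletion-labelled arrays and 3.92 on the wild-type-labelled array, against 5.81, 5.81 and 5.61 for standard-name probe sets. The brighter group was above log2 5 for 47.8% of them (238 of 498), against 76.0% of the standard-name probe sets. The rule takes only such bright probe sets. Of the 238 bright systematic-name ones 70 were higher and 39 lower, and of the 3802 bright standard-name ones 917 and 474. Among bright probe sets both shares were thus larger for systematic names than for standard names, the reverse of the order over all probe sets. The balance of the directions depends on scaling. Of the 109 genes 64.2% were higher, but 53.3% of those past the rule after quantile normalization again (57 higher, 50 lower) and 50.9% after median centring (57 higher, 55 lower). The 13 higher genes lost after quantile normalization again were YJL193W, YDR415C, YMR187C, YGR117C, YHL012W, YGL007C-A, YCR087C-A, YPL150W, YGR017W, YOL075C, YOL014W, YFL065C and YER034W. After median centring 13 were also lost, namely YKL063C, YJL193W, YDR415C, YDR524C-B, YMR187C, YJR112W-A, YHL012W, YGL007C-A, YCR087C-A, YBL055C, YGR017W, YOL014W and YCL002C. No lower gene was lost under either scaling. The median difference of all 5498 named probe sets was 0.19 as deposited, 0.04 after quantile normalization again and -0.06 after median centring. The limma fit over all 5498, which rests on the same contrast, called 50.4% of them higher and 29.7% lower at an adjusted p under 0.05. The genes described here were chosen on that contrast, so nothing is read from it about them.

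**Figure D1:**
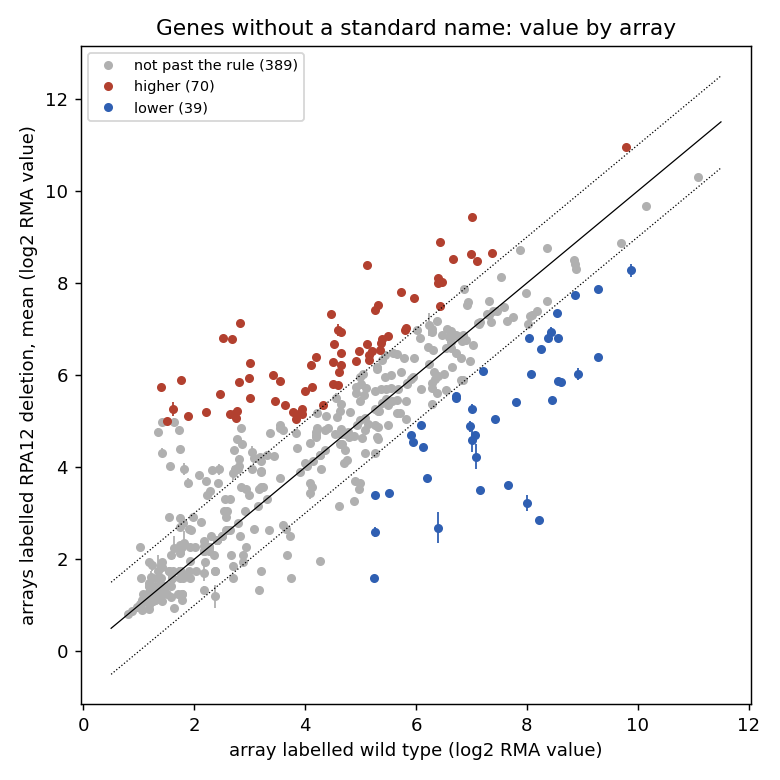
Values of the 498 probe sets with a systematic name only: wild-type-labelled array on the x axis, mean of the 2 deletion-labelled arrays on the y axis (both log2 RMA values), with vertical lines joining the 2 arrays. The solid line is equality and the dotted lines are 1 (log2) away from it. The 70 higher and 39 lower genes lie outside the dotted lines, and grey points outside them missed the brightness limit or lay within 1 on one array.

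The medians of the higher genes were 6.37 and 6.34 on the deletion-labelled arrays against 4.51 on the wild-type-labelled array, and their differences ran from 1.04 to 4.35 with a median of 1.82. For the lower genes the medians were 5.18 and 5.36 against 7.42, and the differences ran from -5.37 to -1.12 with a median of -2.06. The 2 deletion-labelled arrays lay close together for these genes. Their median gap was 0.05 for the higher and 0.09 for the lower genes, and it passed 0.3 for 1 higher and 4 lower genes. Both arrays had exactly the same deposited value for 11 higher and 4 lower genes, against 55.6% of all systematic-name probe sets.

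At the edge of the rule, the smaller of the array differences was 1.01 for YGR017W, 1.02 for YDR415C, a predicted metallo-aminopeptidase, and 1.14 for YJR112W-A. Just outside on the same side were YBR096W at 0.98, YLR036C at 0.97 and YDR131C at 0.96. Among lower genes YBL100W-B at 1.07, YOR019W at 1.08 and YOL036W at 1.11 were just inside, and YGR174W-A at 0.95, YIL055C at 0.93 and YLR264C-A at 0.90 just outside. For brightness, YHL012W at 5.01 and YOL014W at 5.05 were the dimmest higher genes taken, while YIL092W and YJL213W, both at 4.99, were not. The dimmest lower genes taken were YMR175W-A at 5.24 and YKL162C at 5.27, and YNL146C-A at 4.99 and YIL082W-A at 4.98 were not.

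The largest higher differences were in genes close to background on the wild-type-labelled array. YOR012W, of unknown function, read 5.77 and 5.73 against 1.39, which is not above background, and was at least 14.98-fold higher. YOR338W, also of unknown function, read 7.16 and 7.11 against 2.82, a difference of 4.31 or 19.9-fold. YNL277W-A, a short open reading frame, read 6.77 and 6.85 against 2.52, or 19.6-fold. A second short one, YIL014C-A, read 5.94 and 5.87 against 1.75 (not above background) and was at least 16.7-fold higher. YPL264C, a predicted membrane protein with several spans, read 6.84 and 6.70 against 2.67, or 17.2-fold. In each of these genes both deletion-labelled arrays stood together, far above the single wild-type-labelled value.

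Next in size were proteins with family resemblances to sugar enzymes. YHR210C, which resembles aldose 1-epimerases, read 5.11 and 5.41 against 1.61 and was at least 10.7-fold higher. YHL012W, which resembles the UDP-glucose pyrophosphorylase UGP1, read 4.95 and 5.08 against 1.51 and was at least 8.999-fold higher. Neither wild-type-labelled value was above background, and after quantile normalization again or median centring YHL012W no longer reached the brightness limit.

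YIL165C, which with NIT1 makes up a nitrilase gene that is interrupted in the reference strain, read 8.35 and 8.42 against 5.12, a 9.61-fold difference. YDR222W read 6.31 and 6.20 against 2.998 (9.58-fold) and YER034W 5.10 and 5.13 against 1.89 (9.35-fold). YER034W was no longer past the rule after quantile normalization again. The short reading frame YNL162W-A read 5.50 and 5.66 against 2.46. YIL001W, a protein with ankyrin repeats, read 5.87 and 5.85 against 2.80. The remaining genes among the 15 largest were YEL023C (5.15 and 5.25 against 2.21), YER137C (5.94 on both against 2.99) and YNR068C, which resembles part of the ubiquitin-ligase adaptor BUL1 (7.37 and 7.29 against 4.47). The other 55 higher genes were between 2.05-fold and 6.05-fold above the wild-type-labelled array.

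**Figure D2:**
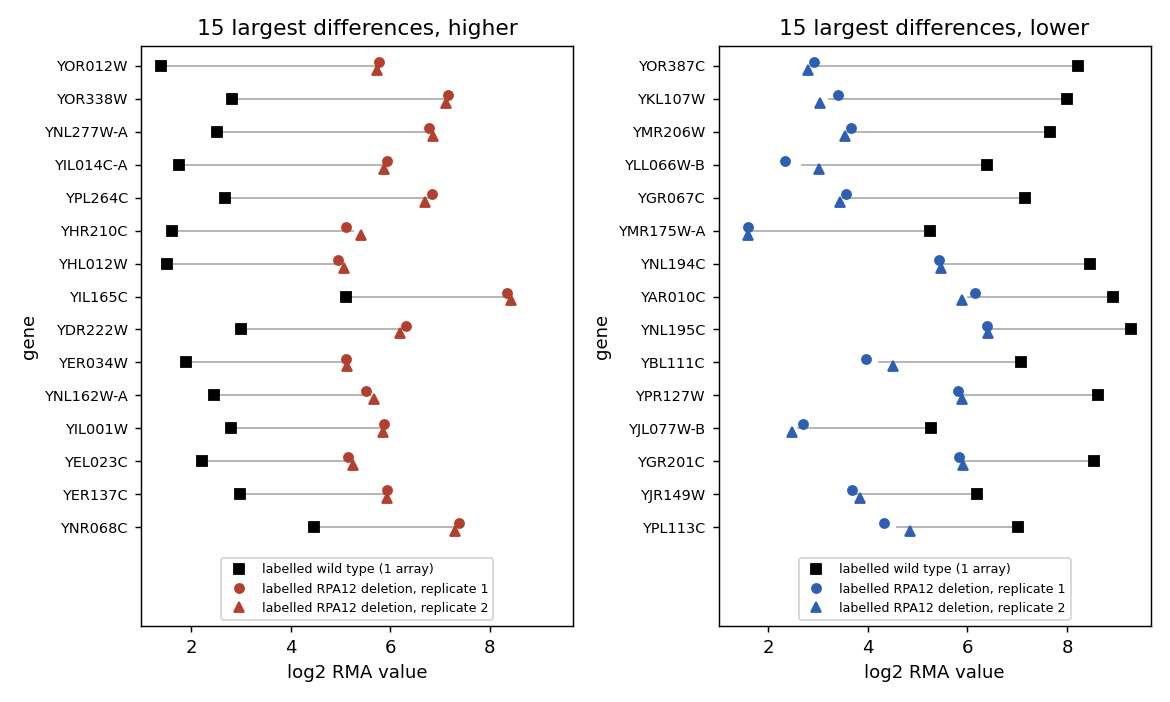
The 15 higher and the 15 lower genes with the largest differences, with the value on each array (x axis, log2 RMA value): the wild-type-labelled array as a square and the 2 deletion-labelled arrays as a circle and a triangle, joined by a line to their mean. The widest gap between circle and triangle among these is 0.68, in YLL066W-B.

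The largest lower difference was in YOR387C, a small protein of a subtelomeric pair with VEL1. It read 2.92 and 2.80 on the deletion-labelled arrays and 8.23 on the wild-type-labelled array, 41.2-fold lower. YKL107W, an aldehyde reductase of the short-chain dehydrogenase family, read 3.40 and 3.04 against 8.004, or 27.5-fold lower. YMR206W, of unknown function, read 3.67 and 3.55 against 7.65, or 16.5-fold lower. All of these values are above background, so the folds are measured on both sides.

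YGR067C, a protein with zinc fingers like those of the transcription factor ADR1, read 3.55 and 3.44 against 7.15, or 12.6-fold lower. YMR175W-A, a short reading frame, read 1.59 on both arrays against 5.24. YNL194C, a membrane protein of the eisosome related to FMP45, read 5.42 and 5.48 against 8.45, and YNL195C, which lies next to it, 6.39 and 6.40 against 9.28. The largest differences thus include both members of a neighbouring pair.

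YPR127W, an aldo-keto reductase that acts on pyridoxal, read 5.81 and 5.89 against 8.62. YGR201C, which resembles a subunit of translation elongation factor 1, read 5.84 and 5.92 against 8.55. YJR149W, of the nitronate monooxygenase family, read 3.68 and 3.84 against 6.19. YPL113C, a glyoxylate reductase, read 4.33 and 4.85 against 7.01, with a gap of 0.51 between the arrays of one group. YJL077W-B, a short reading frame, read 2.69 and 2.48 against 5.27. The rest of the 15 were repeated sequences (YLL066W-B, YAR010C and YBL111C), described further on, and the other 24 lower genes were between 2.17-fold and 5.26-fold below the wild-type-labelled array.

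Many, but not all, of the listed genes known to be induced in the environmental stress response, a shared program that yeast switches on under many stresses, were past the rule as lower. The list was chosen with earlier results of these data known. Of 33 genes listed, 25 were measured, 16 of them under a systematic name, and 10 of these 16 were past the rule as lower and none as higher. Of all systematic-name probe sets 7.83% were lower and 14.1% higher. The median difference of the 16 was -1.49, against 0.19 over all named probe sets. These 10 genes are 25.6% of the 39 lower genes. The count was 10 after quantile normalization again and 12 after median centring, which added YNL115C and YDL124W. Besides YMR206W, YGR067C, YNL195C, YPR127W and YGR201C they were YMR196W (6.03 on both against 8.08), YER079W (6.52 and 6.61 against 8.26), YIR016W (6.71 and 6.91 against 8.37), YHR138C, which resembles a vacuolar protease inhibitor (7.79 and 7.93 against 9.27), and YMR090W (7.34 on both against 8.54). The other 6 were within 2-fold, from YNL115C at -0.91 to YML131W at 0.17, and include YDL124W, an α-keto amide reductase, at 8.87 on both arrays against 9.70. Of the 9 listed genes that have a standard name since, 5 were past the rule as lower, led by RGI2 at -3.68 and RTN2 at -3.49. The others ranged from EGO4 at -0.97 to GOR1 at 0.23, TMC1 at 0.54 and RGI1 at 0.67, the last 3 above the wild-type-labelled array.

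Oxidoreductase-like genes went both ways. Of 20 measured under a systematic name, 4 were past the rule as higher and 4 as lower, and the median difference was 0.01. Of all systematic-name probe sets 14.1% were higher and 7.83% lower. The lower ones were YKL107W, YPR127W, YJR149W and YPL113C, given above. The higher ones were YCR102C, a quinone-reductase-like member of the alcohol dehydrogenase family (5.47 and 5.52 against 3.01), YDR541C, an aldehyde reductase (5.18 and 5.13 against 2.71), YPL088W, an aryl-alcohol dehydrogenase (7.67 and 7.66 against 5.97), and YGL185C, of the hydroxyacid dehydrogenase family (6.78 and 6.80 against 5.39). Between them lay YNL134C, another aldehyde reductase, at -0.79, YMR315W at -0.20 and YGL039W at 0.73. All 8 were still past the rule under both other scalings, and median centring added YNL134C and YDL124W, which made 4 higher and 6 lower.

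Fewer members of the other lists had a systematic name. Among 10 genes of transporter families, YCR023C, a membrane protein of the major facilitator superfamily, was higher (6.61 and 6.74 against 4.51). YDL199C, of the sugar porter family, was lower (4.50 and 4.37 against 6.13). Of all systematic-name probe sets 14.1% were higher and 7.83% lower, with a median difference of 0.00. The median of the 10 was 0.81. It lay between YKR104W (2.64 on both against 1.94) and YPR003C (4.74 on both against 3.84), both under the brightness limit. Of the methyltransferases and ribosome assembly proteins, 4 were measured under a systematic name, and YCR087C-A, a nucleolar zinc-finger protein, was past the rule as higher (5.79 on both against 4.60). It dropped out after quantile normalization again and after median centring. Counting those with a standard name, 8 of the 21 probe sets of that list were past the rule as higher and none as lower, where 18% and 9.33% of all named probe sets were. The 8 became 6 after quantile normalization again and 7 after median centring. None of the 5 measured cell-surface genes with a systematic name was past the rule. Of these, YHR213W, YMR317W and YAR066W were not above background on any array, so they could not pass it. Counting standard names, 1 of the 11 probe sets of that list was higher and 0 lower. It was AFB1, at 6.73 and 6.67 against 2.17. The DUP240 membrane proteins that were measured all have standard names.

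**Figure D3:**
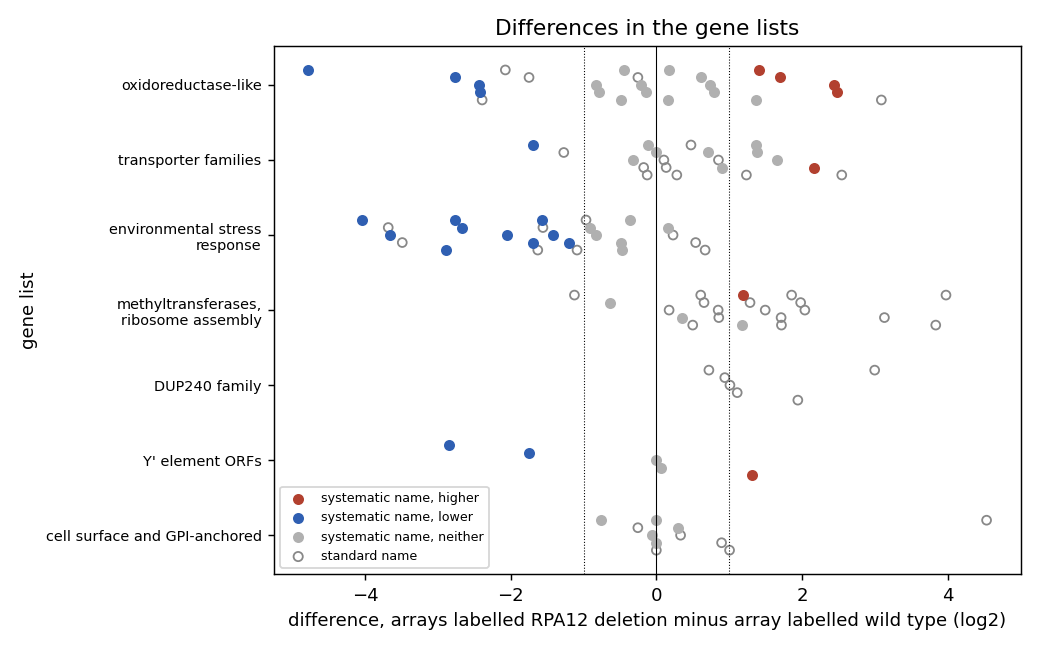
Difference of each measured gene (x axis, mean of the deletion-labelled arrays minus the wild-type-labelled array, log2) in each of 7 gene lists (y axis). Filled points have a systematic name only and are red or blue where past the rule, open circles have a standard name, points are shifted vertically for legibility, and the dotted lines mark 1 and -1. In the stress list 10 of 16 filled points are blue and none is red, where 7.83% of all systematic-name probe sets were lower and 14.1% higher.

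Further higher genes, and the lower ones after them, were picked by known role or family after their values were seen. YHR020W, the prolyl-tRNA synthetase, read 8.65 and 8.59 against 6.999, and YDR341C, the arginyl-tRNA synthetase, 8.66 on both arrays against 7.37. YLR179C, which resembles the carboxypeptidase Y inhibitor TFS1, read 8.92 and 8.87 against 6.43. YKL033W-A, a protein of the haloacid dehalogenase family, read 9.46 and 9.43 against 7.02. After YDR524C-B (10.95 and 10.97 against 9.78) these were among the brightest of the higher genes.

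YLL053C is the second part of the aquaporin gene AQY2, which is split in the reference strain, and it read 7.78 and 7.83 against 5.72. YJL193W, of the triose phosphate translocator family, read 5.08 on both arrays against 2.75 but was not past the rule under either other scaling. YNL234W, a globin-like heme protein, read 5.84 and 5.91 against 3.55. YOL075C, an ABC transporter, read 5.18 and 5.21 against 3.78 and was lost after quantile normalization again. YJR142W, a Nudix hydrolase that acts on thiamine derivatives, read 6.41 and 6.46 against 5.16.

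Lower genes with a family outside the lists included YHR033W, which resembles the glutamate kinase PRO1 (4.67 and 4.72 against 7.07). YMR114C, of the family of abasic-site sensors, read 4.77 and 5.001 against 6.97. YFR018C, which resembles glutaminyl cyclases, read 5.18 and 5.36 against 7.01. YJL068C, the S-formylglutathione hydrolase of formaldehyde breakdown, read 5.47 and 5.53 against 6.72, and YMR027W, a metal-dependent phosphatase, 6.78 and 6.84 against 8.03.

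Repeated sequences made up part of the lower group. Probe sets that the array design marks as shared by several transcripts were 7 of the 39 lower genes (17.9%) and 2 of the 70 higher genes (2.86%), against 7.43% of all systematic-name probe sets, and their signal cannot be assigned to one copy. Of these, YAR009C, YAR010C, YBL100W-B and YDR261W-B are reading frames of Ty1 and Ty2 retrotransposons, which copy themselves through RNA. YAR010C read 6.15 and 5.89 against 8.92, YDR261W-B 8.41 and 8.14 against 9.88, YAR009C 7.04 and 6.82 against 8.44, and YBL100W-B 7.79 and 7.70 against 8.87. YGR109W-B, a Ty3 frame whose probe set is not shared, read 4.72 and 4.66 against 5.92.

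In a list of all 13 Ty frames on the array, made after the values were seen, 6 were past the rule as lower and none as higher. Over all named probe sets the rule took 9.33% as lower and 18% as higher. Of the 13 Ty frames 9 lay below the wild-type-labelled value, 3 above and 1 equal, with a median of -1.12. All but YGR109W-B have shared probe sets, which may read the same copies, so they cannot be counted as separate observations. The 6 became 7 after quantile normalization again and 8 after median centring. Above the wild-type-labelled value were YGR109W-A of Ty3 at 0.47 and the Ty4 frames YHL009W-B at 0.46 and YHL009W-A at 0.45. On the wild-type-labelled array YGR109W-A (1.78) and YHL009W-A (1.40) were not above background, and neither was YBL005W-A (1.75), the equal frame. The brightest, YDR316W-B of Ty1, read 10.34 and 10.28 against 11.09. Whether the strains hold different numbers of copies was not tested.

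Genes in the Y' elements, repeats next to telomeres that encode helicase-like proteins, went both ways. Of 5 measured, YBL111C (3.96 and 4.50 against 7.08) and YBL113C (6.79 and 6.83 against 8.55) were lower, and YFL065C was higher (5.25 on both against 3.95). YEL075C read 1.03 on every array, which is not above background, and YFL064C was dim at 2.64 on both against 2.58. All 5 probe sets are shared and may read the same copies. YFL065C fell short of the rule after quantile normalization again. YLL066W-B, also near a telomere, had 3 probe sets that disagree. The one past the rule, which is shared, read 2.34 and 3.02 against 6.39. Another shared one read 2.09 on both against 2.35 (-0.25). The one not shared read 2.39 on both against 2.18 (0.21), so these others were dim on every array. YMR321C, the other higher gene with a shared probe set, read 8.50 and 8.54 against 6.67.

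The genes next to each systematic-name gene were looked up in the gene order of the RefSeq table (assembly R64). Of the 70 higher genes, 68 had a measured neighbour, and 23 had one that was past the rule as higher and 10 one that was lower. Of the 119 neighbours 19.3% were higher and 8.40% lower, against 17.9% and 9.34% over all neighbours in the table. Of the 39 lower genes, 38 had a measured neighbour, 14 had one that was lower and 9 one that was higher. Among their 71 neighbours 21.1% were lower, against 9.34% over all, and among the 46 on the same strand 26.1% (12), against 10.3%. These counts include 2 pairs in which both genes belong to the lower group, YNL194C with YNL195C, and YAR009C with YAR010C of the same Ty1 element. Each of these pairs lies on the same strand and enters the counts from both sides, which raises the lower shares. Another lower neighbour, YDR261C-D beside YDR261W-B, is also a Ty1 frame with a shared probe set. The shares were not tested, since gene and neighbour come from one contrast.

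Higher genes lay beside several higher genes with names (the neighbours named here were picked after their values were seen). YOR338W lies beside TEA1, a Ty1 enhancer activator, which read 6.51 and 6.64 against 1.90 and was 25.4-fold higher. YNL277W-A lies on the same strand as MET2, an enzyme of homoserine acetylation for methionine synthesis, which read 7.996 and 7.93 against 4.32. YLR179C is divergent from SAM1, an S-adenosylmethionine synthetase, at 7.78 and 7.74 against 4.08. For the interrupted genes both parts were higher, with NIT1 at 6.69 and 6.76 against 2.47 beside YIL165C and AQY2 at 6.73 and 6.68 against 3.93 beside YLL053C. YLL053C overlaps AQY2 in the table. YBL055C, a nuclease of the TatD family, is divergent from TOD6, a repressor of ribosome biogenesis genes, at 5.85 on both arrays against 3.41. YBL055C itself was lost after median centring.

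Other higher genes lay beside lower ones. YDR222W, at 3.26, lies on the same strand as CRF1, a corepressor of ribosomal protein genes, at 3.37 and 3.21 against 6.10. YER053C-A, at 8.11 and 8.09 against 6.40, lies beside GIP2, a regulator of type 1 phosphatase, at 2.79 on both arrays against 5.81. YDR444W, a lipase-like protein, read 5.45 on both arrays against 3.46 and is divergent from SSN2, a Mediator subunit, at 3.53 and 3.72 against 5.49. YDR524C-B, the brightest higher gene, lies beside YDR524W-C, which reads from the opposite strand and was lower at 3.58 and 3.74 against 6.39. After median centring YDR524C-B differed by 0.93 and was not past the rule.

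Lower genes lay beside several named genes that were lower too. YMR175W-A lies on the same strand as SIP18, a desiccation-tolerance protein, which read 6.78 and 6.93 against 11.18 and was 20.1-fold lower. YHR138C lies beside SPS100, a spore wall protein, at 6.27 and 6.44 against 10.07, and YOR387C beside the formate dehydrogenase FDH1 at 3.23 and 3.66 against 7.38. YBR071W (3.40 and 3.49 against 5.51) lies beside the small heat shock protein HSP26 at 9.16 and 9.08 against 10.64. YPL119C-A (5.45 and 5.37 against 7.80) lies on the same strand as the RNA helicase DBP1 at 3.74 on both arrays against 6.85.

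Neighbours in the opposite direction occurred here too. YIR016W is convergent with MET28, a regulator of sulphur genes, at 6.34 and 6.49 against 1.82 (not above background). YKL162C, at 3.40 on both arrays against 5.27, lies between KDX1, a kinase-like protein, at 6.76 and 6.66 against 2.06, and PIR3, a cell wall protein, at 6.04 and 5.99 against 9.77. YJL077W-B is divergent from PRY3, a sterol-binding cell wall protein, at 6.72 and 6.35 against 5.05.

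**Figure D4:**
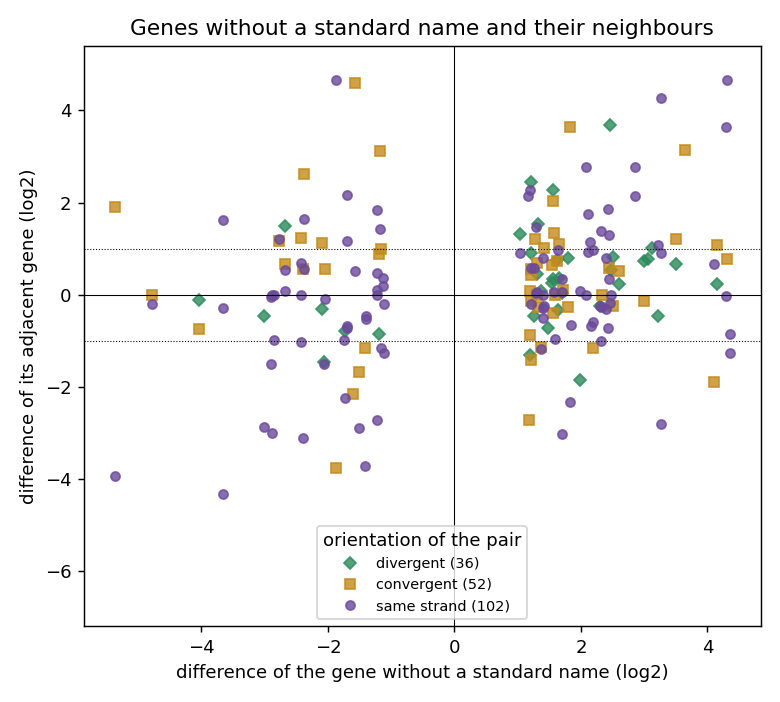
Difference of each of the 109 genes with a measured neighbour (x axis) and of its adjacent gene in the RefSeq gene order (y axis), both as deletion-labelled arrays minus wild-type-labelled array (log2), by orientation of the pair. No point lies between -1 and 1 on the x axis because of the rule, and dotted lines mark 1 and -1 on the y axis. Neighbours of both groups spread on both sides of 0.

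Related genes were compared for 12 pairs known as paralogs or relatives, a list made after the values were seen. In 4 pairs both were past the rule in one direction, in 2 the partners were past it in opposite directions, and in 6 the partner was not past it. YOR387C and VEL1 were both lower, VEL1 at 1.75 on both arrays against 5.18. YDR222W was higher together with YLR225C (8.09 and 7.98 against 6.48), and YIR016W lower together with YOL036W (6.08 and 6.10 against 7.21). FMP45, at 4.63 and 4.57 against 7.23, was lower like YNL194C. For VEL1 and YOR387C a shared signal between near-identical sequences was not tested.

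The opposite pairs were YOR338W with FUN19 (7.25 and 7.20 against 8.27) and YER158C (4.88 and 4.94 against 6.09) with AFR1, a protein of mating projections (7.88 and 7.80 against 6.71). Among the unlike partners, YNR014W, the relative of YMR206W, read 3.90 on all 3 arrays, and UGP1 and TFS1 differed by -0.28 and -0.17. PRO1 differed by 0.88 and YPR172W, the relative of YLR456W, by -0.76, which was past the rule as lower after median centring. YLR460C, the relative of YCR102C, differed by 1.37 but stayed under the brightness limit at 4.77 and 4.72.

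The genes lay on all 16 chromosomes, and over all of them 14.1% of the systematic-name probe sets were higher and 7.83% lower. Chromosomes III and XIII were picked after the values were seen, as those with the largest shares of higher and of lower genes. Chromosome III held 6 higher genes among 18 systematic-name probe sets (33.3%) and no lower one, while 18.2% of its 132 standard-name probe sets were higher and 8.33% lower. These were YCL049C, YCL002C, YCR023C, YCR043C, YCR087C-A and YCR102C, spread over both arms. Of these, 5 were past the rule after quantile normalization again and 4 after median centring. Chromosome XIII held 7 lower genes among 41 (17.1%), all on its right arm, where YMR206W and YMR175W-A have the largest differences. Of its standard-name probe sets 11.4% were lower. Chromosome I came next with 2 lower genes among 13 (15.4%), YAR009C and YAR010C of the same Ty1 element. By strand, 29 higher and 20 lower genes were among 256 Watson probe sets (11.3% and 7.81%), and 41 higher and 19 lower among 242 Crick ones (16.9% and 7.85%). Left arms held 33 higher and 15 lower genes among 218 systematic-name probe sets (15.1% and 6.88%), and right arms 37 and 24 among 280 (13.2% and 8.57%).

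Systematic-name genes were more often near chromosome ends than named ones: 13.5% of their probe sets (67) against 3.42% (171) were among the 10 outermost genes of an arm. Of the 171 with standard names, 24 were higher (14.0%) and 23 lower (13.5%), against 18.3% and 9.48% of all standard-name probe sets. Of the 67 with systematic names, 5 were higher (7.46%) and 4 lower (5.97%), against 14.1% and 7.83% of all systematic-name probe sets. The higher ones were YCR102C, YDR541C, YLR456W, which resembles pyridoxamine phosphate oxidases (5.21 and 5.23 against 2.77), YMR321C and YFL065C. The lower ones were YOR387C, YLL066W-B, YBL111C and YBL113C, the last of which is the outermost gene of the left arm of chromosome II in the table.

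**Figure D5:**
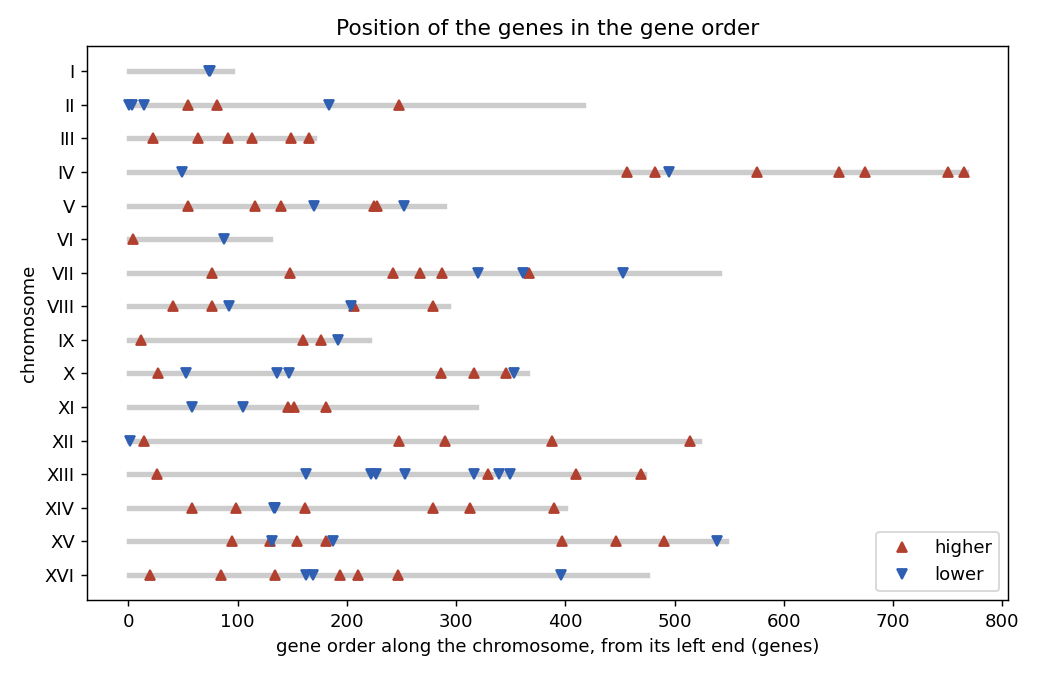
Place of the 109 genes in the gene order of each chromosome (x axis, genes counted from the left end; y axis, chromosome), as upward triangles for higher and downward triangles for lower genes. Grey bars span the genes of the chromosome. Chromosome III has 6 higher and no lower genes among 18 systematic-name probe sets, and chromosome XIII has 7 of the 39 lower genes, among 41. Over all chromosomes 14.1% of these probe sets were higher and 7.83% lower.

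Open reading frames with a suffix in their name were 138 of the 498 probe sets, and 12 of them were higher (8.70%) and 7 lower (5.07%), against 14.1% and 7.83% of all systematic-name probe sets. The higher ones ran from YNL277W-A and YIL014C-A, given above, to YGL007C-A at 6.33 and 6.30 against 5.16, which lies on the same strand as the plasma membrane proton pump PMA1 (9.24 and 9.07 against 7.0045). YGL007C-A was not past the rule under either other scaling. Of the lower ones, 4 belong to Ty elements or a telomere repeat and the others are YMR175W-A, YJL077W-B and YPL119C-A. YKL068W-A, at 7.11 and 6.85 against 4.59, had a gap of 0.26 between the arrays of one group, still far from the wild-type-labelled value. YHR210C at 0.30 was the higher gene with the widest gap, and the lower genes with gaps above 0.3 were YLL066W-B at 0.68, YBL111C at 0.53, YPL113C at 0.51 and YKL107W at 0.36.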

How the data were processed

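The authors deposited log2 values per probe set, for which the submitters' processing notes name RMA and Affymetrix Expression Console. Their versions, and which arrays were summarised together, are not given in the sources. RMA usually brings arrays to a common distribution, which would hide a change shared by most transcripts. Values were used as deposited. Of 10928 probe sets, 5498 were assigned to S. cerevisiae genes through the platform annotation, and all 498 with a systematic name matched the RefSeq gene table (assembly R64), which gave no standard name for any of the 109. Its coordinates are not printed, because the arrays name no build. The background level was the 95th percentile of 1746 probe sets of the other yeast species on the array: 1.42, 1.42 and 1.84. Where a group was at or below it, the fold is a bound ("at least"), with the dim value raised to that level. Array number, not depth, limits precision.

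Each difference subtracts the wild-type-labelled value from the mean of both deletion-labelled arrays. limma 3.58.1 (R 4.3.3; lmFit, eBayes, Benjamini-Hochberg, two-sided) was fitted over all 5498 (residual degrees of freedom: 1) and tested on simulated data. Its p-values measure only the spread between 2 arrays, which may be technical, and 44.2% of probe sets had equal values on both. The rule, genes and lists were chosen with earlier results of these data known. Genes named are the 15 largest each way, the 4 brightest, those at the thresholds, adjacent members, up to 4 per list, the outermost and those with the most changed divergent neighbour, and all others were chosen after their values were seen. Promoter motifs and protein identity, planned at the start, were not analysed here.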

Additional observations from a re-analysis of the deposited data

How the results depend on the processing

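No paired analysis was possible because the wild type is 1 array whose label carries no replicate number. With 1 wild-type-labelled array its own spread is unknown, and dim values are limited by background. The 70 higher genes became 106 with no brightness minimum, 43 with a minimum of log2 6 and 32 with a difference of log2 2, and the 39 lower genes became 20 at log2 2. These follow from the settings themselves. Leaving out either deletion-labelled array gave 70 to 74 higher and 39 to 39 lower genes. The other alternatives stayed within 1.5 times: 57 higher genes after either scaling, all among the 70, and 50 or 55 lower genes, which included all 39. With a minimum of log2 4 there were 89 and 45, with a limma call on the same values also required 69 and 34, and without shared probe sets, an alternative chosen after seeing the data, 68 and 32. Each scaling took 13 genes out of the higher group. limma called 4407 of all probe sets as deposited, of which 62.9% were higher, 4918 after quantile normalization again (51.2%), 5133 after median centring (47.5%) and 3483 among bright probe sets (61.1%).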

Other observations

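Outside the brightness limit, 48 more genes with a systematic name differed at least 2-fold on both deletion-labelled arrays, 36 higher and 12 lower. YJL213W read 4.99 on both arrays against 1.42 on the wild-type-labelled array, YAL037W 4.68 and 4.85 against 1.35, YIL092W 4.91 and 5.07 against 1.63, and YLR419W, a putative RNA helicase, 4.81 on both against 1.72. None of these wild-type-labelled values was above background. YOL162W (4.91 on both against 3.55) and YOL163W (2.92 on both against 1.55), neighbours that resemble parts of an allantoate permease, were both higher. The dim lower genes with the largest differences were YJR115W (1.93 and 2.01 against 4.27) and YOL131W (1.59 on both against 3.74). These genes were chosen after their values were seen.

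Names with a suffix beyond -B were outside the rule for names, and 3 of their 10 probe sets met the same limits, all as lower. YDR524W-C read 3.58 and 3.74 against 6.39, the Ty1 frame YDR261C-D 5.59 and 5.16 against 7.54, and YLR154C-H, on chromosome XII, 4.99 and 5.25 against 6.41.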
